A study of Homo sapiens with 6 samples.

Results

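The basal and stress keratins were followed in Cal33 cells, an established line from a human squamous carcinoma of the mouth, through 8 genes chosen by name: KRT5, KRT14 and KRT15 (basal) and KRT17, KRT16, KRT6A, KRT6B and KRT6C (stress). All 8 were found among the 14136 gene entries of the deposited table, which lists 25 keratin entries in all. One set of cells carried FLAG-tagged CES2, the gene of the ester-cleaving enzyme carboxylesterase 2, in the lentiviral vector pSin-EF2 (CES2, 3 libraries), and the comparison cells carried pSin-EF2 with no insert (Vector, 3 libraries). Virus for both groups was packaged in 293FT cells, which derive from human embryonic kidney, and both were kept stable with 0.5 ug/ml puromycin. The labels do not say whether each group was a pool of transduced cells or a clone, nor whether its 3 libraries came from separate cultures, so the error in every p-value below is that between libraries and may be technical only. Untransduced Cal33 cells were not analysed here.

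Keratins are the intermediate filament proteins of epithelial cells, and each filament is built from pairs of one acidic type I chain and one basic type II chain. KRT5 (type II) with KRT14 (type I) is the classic pair of the dividing basal layer of stratified epithelium, and KRT15 is another type I chain of basal cells. KRT6A, KRT6B and KRT6C (type II) with KRT16 and KRT17 (type I) are known as stress keratins, because wounding, inflammation and fast growth induce them in epidermis, while some are present without injury in oral mucosa.

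Values are TPM, transcript abundance per length scaled to a fixed total per library, which keeps no sequencing depth, so no counting interval can be given. Blank fields numbered 73 to 279 per library and were read as 0. CES2 itself was at 2664, 1929 and 2294 TPM in CES2 cells, against 45.6, 41.9 and 44.9 TPM in Vector cells (log2 fold change 5.66 ± 0.18 SE, limma with Benjamini-Hochberg adjustment over all genes, adjusted p = 7.38e-06). All 10 keratin-free squamous markers on a fixed list, such as TP63, SFN and DSG3, were listed in every library, with a summed level of 2322 to 2957 TPM in CES2 cells and 2295 to 3275 TPM in Vector cells. Of 14 markers of fibroblasts, leukocytes and endothelium, 9 were not analysed here, PTPRC, CD3E, COL1A2, COL3A1 and DCN among them, and the other 5 summed to 5.28 to 13.5 TPM in CES2 cells and 5.84 to 11.98 TPM in Vector cells, most of it COL1A1.

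No basal or stress keratin was shown to differ between CES2 and Vector cells beyond the spread between libraries. Of the 8 genes, 7 passed the filter of at least 1 TPM in at least 3 libraries, and 0 of these passed an adjusted p of 0.05 in limma on log2(TPM + 1), where 0.00819% of the 12210 tested genes did. That share was 1 gene, CES2 itself, so no gene other than the introduced one passed. At an unadjusted p under 0.05 the count was also 0 of 7, beside 1.09% of all tested genes. In each of the 8 the CES2 and Vector values overlapped, and groups were separate in 3.7% of tested genes. Among the 7, 3 log2 fold changes were above 0 and 4 below, with a median of -0.02, while 4430 of all tested genes were above 0 and 7780 below, with a median of -0.06. The 8 genes together made up 0.459%, 0.493% and 0.579% of all TPM in CES2 cells, against 0.518%, 0.596% and 0.499% in Vector cells. A two-sided exact permutation test of each gene's 6 values cannot give a p below 0.1, and it gave between 0.2 for KRT17 and 1 for KRT14. In these bulk samples, fewer cells that express a gene and less of its RNA per cell cannot be told apart.

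**Figure D1:**
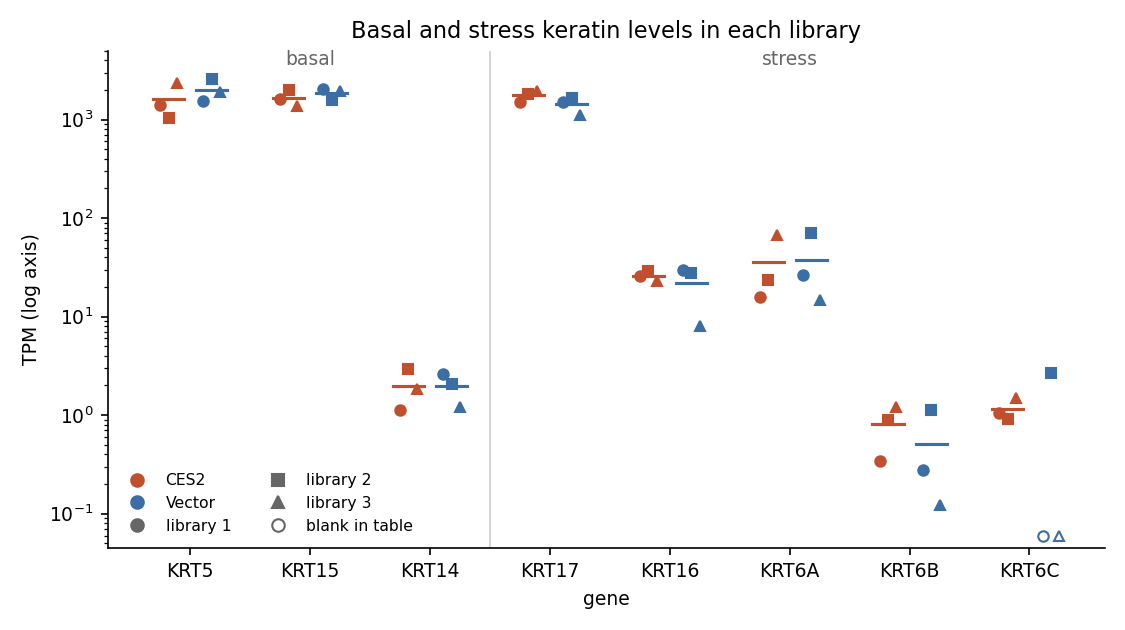
TPM of each basal and stress keratin (log axis) in 3 CES2 libraries (left, red) and 3 Vector libraries (right, blue), with marker shapes for the library number, a line at each group mean where no value is blank, and open markers for blank fields. KRT5, KRT15 and KRT17 lie at 1031 TPM or more in every library, KRT16 and KRT6A between 8.04 and 70.4 TPM, and KRT14, KRT6B and KRT6C below 3 TPM, and the groups overlap for every gene.

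The members fell into 3 tiers of level, which did not follow the division into basal and stress genes. KRT5, KRT15 and KRT17 averaged 1814, 1768 and 1593 TPM over the 6 libraries, and each ranked between 37 and 130 of all 14136 entries in every library. In TPM, the order of these 3 was not fixed: KRT5 exceeded KRT15 in 2 of 6 libraries, and KRT15 exceeded KRT17 in 4 of 6. KRT6A and KRT16 formed the middle tier with means of 36.5 and 24.1 TPM, and KRT6A was the higher in 3 of 6 libraries. KRT14, KRT6C and KRT6B formed the low tier, with KRT14 at a mean of 1.98 TPM. KRT17 exceeded KRT6A, and KRT16 exceeded KRT14, in 6 of 6 libraries with no overlap of their ranges, while neighbours within a tier overlapped. The upper tier held 98.3% to 99.5% of the TPM of the 8 genes.

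KRT5, the type II keratin of basal cells (ENSG00000186081, chromosome 12 from 52514575 to 52520687, minus strand, GRCh38, 9 exons), was at 1413, 1031 and 2380.4 TPM in CES2 cells, against 1559.7, 2597 and 1902 TPM in Vector cells. The lowest value was that of CES2 2 and the highest that of Vector 2, with CES2 3 close behind it, so the CES2 range spanned most of the Vector range. The means were 1608 ± 696 TPM in CES2 cells and 2019.7 ± 529 TPM in Vector cells (SD, n = 3 each). The log2 fold change was -0.38 ± 0.33 (SE; limma, adjusted p = 0.9998). The 95% interval ran from 0.456-fold to 1.29-fold, and the log2 fold change was -0.71 without CES2 3, -0.11 without CES2 2 and -0.19 without Vector 2.

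KRT14, the usual type I partner of KRT5 (ENSG00000186847, chromosome 17 from 41582279 to 41586921, minus strand, 8 exons), was low in TPM in both groups. It was at 1.14, 2.97 and 1.83 TPM in CES2 cells, against 2.64, 2.08 and 1.21 TPM in Vector cells, and lay between places 11168 and 12199 of all entries. The log2 fold change was -0.02 ± 0.34 (SE, limma, adjusted p = 0.9998), and its sign turned under 6 of 15 other settings. Some of the 15, such as the replicate block, cannot move the log2 fold change. KRT5 exceeded KRT14 by 347 to 1299.6-fold in CES2 cells and by 590.0 to 1577-fold in Vector cells. Of the 3 genes labelled basal, KRT5 and KRT15 were thus high in TPM and KRT14 was low. How far shared sequence lowers the KRT14 value, or the listed length alters that of KRT15, was not tested.

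KRT15, the other type I keratin of basal cells (ENSG00000171346, chromosome 17 from 41513743 to 41522413, minus strand, 8 exons), was at 1619.9, 2019.6 and 1371 TPM in CES2 cells, against 2064, 1585 and 1950.2 TPM in Vector cells. The means were 1670.1 ± 327 TPM in CES2 cells and 1866 ± 251 TPM in Vector cells (SD, n = 3 each), with a log2 fold change of -0.17 ± 0.21 (SE; limma, adjusted p = 0.9998). The interval of 0.637-fold to 1.24-fold was the narrowest of the tested members, although the log2 fold change ran from -0.32 without CES2 2 to -0.04 without CES2 3, and the highest library exceeded the lowest by only 1.51-fold. The transcript listed for KRT15 is 5237 bases long, of which the first exon takes 4084 and the coding sequence 1371. How the submitters derived 1 value per gene is not stated in the sources at hand, so the level of KRT15 relative to genes with shorter listed transcripts depends on a length that was not checked.

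KRT17, a type I keratin of injured epidermis and of many squamous carcinomas (ENSG00000128422, chromosome 17 from 41619437 to 41624577, minus strand, 8 exons), was the one abundant stress keratin. It was at 1512, 1823 and 1941 TPM in CES2 cells, against 1495, 1674 and 1111 TPM in Vector cells. Among the CES2 libraries only CES2 1 lay within the Vector range, and Vector 3 was the lowest of all. The means were 1759 ± 221 TPM in CES2 cells and 1427 ± 288 TPM in Vector cells (SD, n = 3 each). The log2 fold change of 0.31 ± 0.21 (SE) had the smallest p of the 8 genes (unadjusted p = 0.177, limma adjusted p = 0.9998), with an interval of 0.887-fold to 1.74-fold. Without Vector 3 it was 0.14. KRT17 and KRT15 supplied nearly all type I message of the 8 genes: KRT17 made up 47.9%, 47.1% and 58.2% in CES2 cells, against 41.6%, 50.9% and 36.2% in Vector cells.

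KRT16, the type I chain that pairs with KRT6 proteins in wounded epidermis (ENSG00000186832, chromosome 17 from 41609778 to 41612753, minus strand, 8 exons), was at 26.1, 29.2 and 23.1 TPM in CES2 cells, against 30.03, 27.9 and 8.04 TPM in Vector cells. Apart from Vector 3, the libraries lay between 23.1 and 30.03 TPM. The log2 fold change of 0.43 ± 0.44 (SE; limma, adjusted p = 0.9998) rested on Vector 3 and was -0.15 without that library. KRT16 lies 6.7 kb from KRT17 on the same strand, and its mean level over the 6 libraries was lower by a factor of 66.2.

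KRT14, KRT16, KRT17 and several pseudogenes are alike in sequence, so short reads can match more than 1 of them. Coding sequences were 87.2% identical between KRT14 and KRT16, 83.8% between KRT14 and KRT17 and 78.0% between KRT16 and KRT17. Along the whole listed transcript as GENCODE release 29 gives it (1517 bases for KRT17, which the table lists with 1524, and the same length as in the table for the other 7 members), 23.8% of all windows of 50 bases in KRT14 also occur exactly in another annotated gene, with KRT16 the most frequent partner at 11.2%, and 5.95% of windows of 100 bases do. The corresponding shares were 22.0% and 7.18% for KRT16, and 17.4% and 0.353% for KRT17, whose most frequent partners were pseudogenes such as KRT17P1. At both window lengths, most windows of KRT14 had no exact match in another annotated gene. The read length and the treatment of reads with several matches are not stated in the sources at hand. Their effect on the KRT14 value was not tested.

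KRT6A, the most abundant of the KRT6 copies (ENSG00000205420, chromosome 12 from 52487174 to 52493257, minus strand, 9 exons), varied 4.805-fold between libraries without regard to group. It was at 15.6, 23.5 and 68.1 TPM in CES2 cells, against 26.8, 70.4 and 14.7 TPM in Vector cells. CES2 3 and Vector 2 stood well above every other library. The means were 35.7 ± 28.3 TPM in CES2 cells and 37.3 ± 29.3 TPM in Vector cells (SD, n = 3 each), with a log2 fold change of -0.05 ± 0.64 (SE) and an interval of 0.351-fold to 2.67-fold (limma, adjusted p = 0.9998). The sign turned when single libraries were left out: the log2 fold change was 0.39 without CES2 1, 0.11 without CES2 2 and 0.55 without Vector 2, and it was -0.64 without CES2 3. These data therefore bound the KRT6A difference only loosely.

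KRT6B (ENSG00000185479, chromosome 12 from 52446651 to 52452126, minus strand, 9 exons) did not pass the filter. It was at 0.343, 0.89 and 1.21 TPM in CES2 cells, against 0.279, 1.13 and 0.123 TPM in Vector cells, so it reached 1 TPM only in CES2 3 and Vector 2. KRT6C (ENSG00000170465, chromosome 12 from 52468516 to 52473785, minus strand, 9 exons) was at 1.05, 0.918 and 1.48 TPM in CES2 cells, against 2.70 TPM in Vector 2 and blank fields in Vector 1 and Vector 3. Its fitted log2 fold change of 0.47 ± 0.52 (SE; limma, adjusted p = 0.9998) takes the blanks as 0 and was 2.02 with a pseudocount of 0.1, so it gives no usable size. KRT6A held 91.8% to 99.2% of the summed TPM of the 3 copies.

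The 3 KRT6 copies were shown side by side because their coding sequences are nearly alike. Their coding sequences of 1695 bases each differed at 35 positions between KRT6A and KRT6C, 43 between KRT6A and KRT6B and 26 between KRT6B and KRT6C, which is 97.5% to 98.5% identity. The stretches are the 60 bases with the most differing positions, in exon 2 at coding bases 663 to 722 of each gene (GENCODE release 29, coding strand, 5′ to 3′). Capitals mark the 9 positions at which the copies differ.
KRT6A (chr12:52491555-52491614, minus strand): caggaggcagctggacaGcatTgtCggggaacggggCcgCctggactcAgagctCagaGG
KRT6B (chr12:52450439-52450498, minus strand): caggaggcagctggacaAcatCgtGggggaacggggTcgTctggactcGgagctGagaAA
KRT6C (chr12:52472099-52472158, minus strand): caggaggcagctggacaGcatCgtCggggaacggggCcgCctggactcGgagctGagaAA
Even here KRT6C differs from KRT6A at 5 of 60 bases and from KRT6B at 4. Of all windows of 50 bases, 39.1% in KRT6A, 47.1% in KRT6B and 53.6% in KRT6C occur in another annotated gene, and of windows of 100 bases 18.2%, 24.6% and 31.7%. The split of reads between the copies is therefore uncertain, and their sum is the firmer value: 17.04, 25.3 and 70.8 TPM in CES2 cells, against 27.0, 74.2 and 14.8 TPM in Vector cells. KRT5, the other type II gene of the 8, shared 3.99% of its windows of 50 bases and 81.1% to 81.5% of aligned coding bases with the KRT6 copies.

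**Figure D2:**
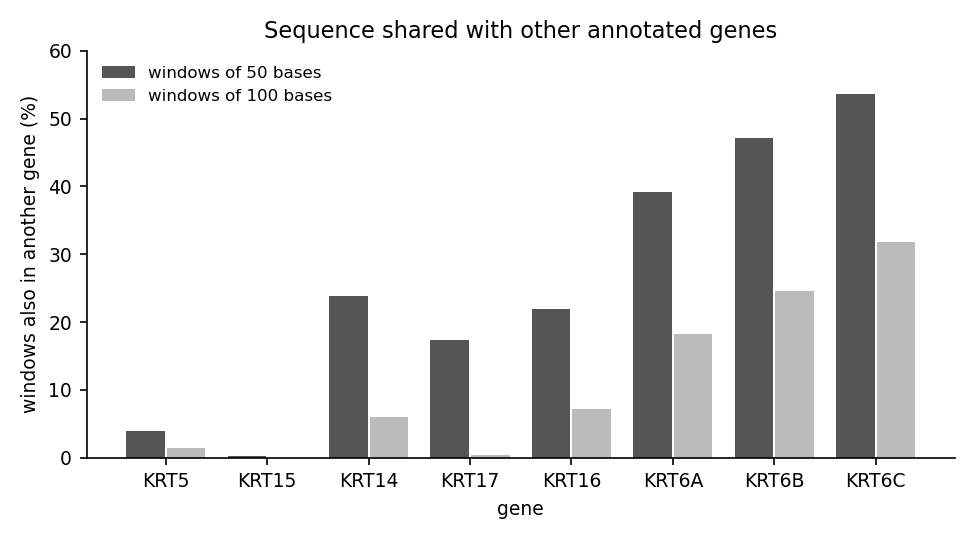
Percent of all windows of 50 bases (dark) and 100 bases (light) of each listed transcript that also occur exactly in a GENCODE release 29 transcript of another gene, on either strand. KRT6C is highest at 53.6% and 31.7%, and KRT15 lowest at 0.328% and 0%.

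Genes that lie side by side in the keratin clusters differed widely in level. On chromosome 12 the order is KRT6B, KRT6C, KRT6A and KRT5, with no other listed keratin between them, and KRT5 exceeded KRT6A, 21.3 kb away, by a factor of 49.7. On chromosome 17, KRT14 lies between KRT15, 59.9 kb away with 2 other listed keratins in the gap, and KRT16, 22.9 kb away. KRT15 exceeded KRT14 by a factor of 894 and KRT16 exceeded it by a factor of 12.2, on means over the 6 libraries.

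Type I message exceeded type II message among the 8 genes in every library. Type II genes summed to 1430.5, 1056 and 2451 TPM in CES2 cells, against 1587, 2671 and 1917 TPM in Vector cells, with KRT5 at 97.1% to 99.2% of each sum. Type I genes summed to 3159.5, 3875 and 3336.5 TPM in CES2 cells, against 3592, 3289 and 3070.2 TPM in Vector cells. The ratio of type II to type I was 0.453, 0.273 and 0.735 in CES2 cells, against 0.442, 0.812 and 0.624 in Vector cells. The ratio was highest in Vector 2 and CES2 3 and lowest in CES2 2, and the groups overlapped. Over all type I and type II keratin entries, which add the simple epithelial pair KRT8 and KRT18 and the mucosal KRT4 and KRT13, it was 0.564, 0.442 and 0.779 in CES2 cells, against 0.460, 0.723 and 0.650 in Vector cells.

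**Figure D3:**
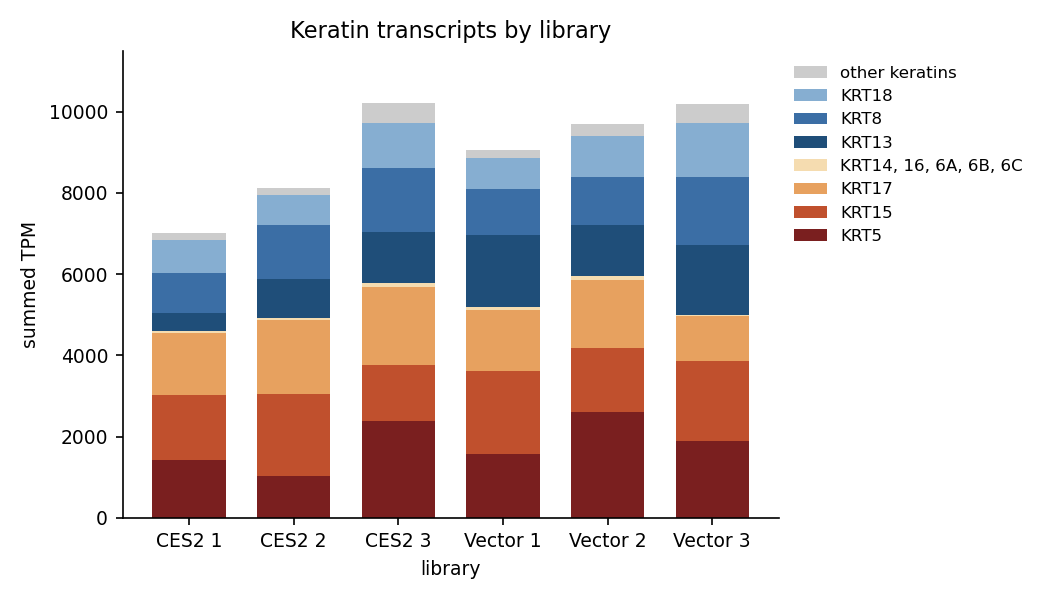
Summed TPM of the keratin entries in each library, stacked by gene, with CES2 libraries on the left and Vector libraries on the right. KRT5, KRT15 and KRT17 (red to orange) hold most of the TPM of the 8 genes in every library, the other 5 are a thin band, and KRT13, KRT8 and KRT18 (blue) make up most of the remainder.

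The clearest pattern among the members ran across the groups. CES2 3 and Vector 2 were the 2 highest libraries for KRT5, KRT6A, KRT6B and KRT6C, all 4 type II members, of which the KRT6 copies share much of their sequence. Among the other type II keratin entries this also held for KRT80. It did not hold for KRT4, KRT7, KRT8, KRT74, KRT81 or KRT86, so it was not a trait of type II keratins in general. CES2 3 and Vector 2 were the 2 lowest libraries for KRT15. Of all 12210 tested genes, 10.2% had this pair of libraries highest and 25.2% had it lowest. The ratio of KRT5 to KRT15 was 1.74 in CES2 3 and 1.64 in Vector 2, against 0.873 and 0.510 in CES2 1 and CES2 2 and 0.756 and 0.975 in Vector 1 and Vector 3. In TPM, the other libraries thus had less KRT5 than KRT15, and these had more. Where this ratio crosses 1 depends on the length taken for KRT15, which was not checked. This pattern was seen after the values were examined and is given without a test. Vector 3 was the lowest library for KRT17, KRT16, KRT6A and KRT6B, and for KRT6C it was blank together with Vector 1. How often Vector 3 was lowest over all tested genes was not counted, so this is not read as a trait of the stress keratins. No label distinguishes CES2 3, Vector 2 or Vector 3 from the other libraries of their groups. Without CES2 3 and Vector 2, chosen after seeing the data, 0 of 7 members passed and the log2 fold changes of KRT5 and KRT6A were -0.51 and -0.05. That of KRT6C was 0.99, with blank fields in the remaining Vector libraries.

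**Figure D4:**
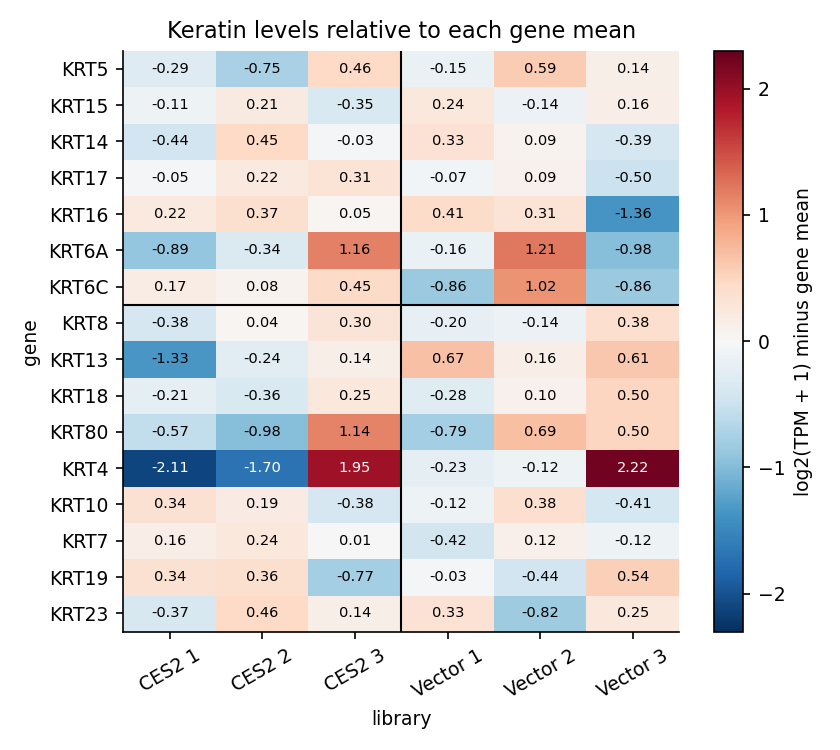
Level of each tested keratin in each library, as log2(TPM + 1) minus the gene's own mean over 6 libraries, with basal and stress keratins above the horizontal line, other keratins below it, and CES2 libraries left of the vertical line. KRT5 and KRT6A are highest in CES2 3 and Vector 2 (0.46 and 0.59 for KRT5, 1.16 and 1.21 for KRT6A), where KRT15 is lowest (-0.35 and -0.14).

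Genes with the most similar profile over the 6 libraries were sought by the root mean square distance between log2(TPM + 1) values centred on each gene's mean. To the mean profile of the 3 basal genes the nearest of the non-keratin genes were WARS, AC116366.3 and BORA, at distances of 0.04, 0.06 and 0.06. KRT5, KRT14 and KRT15 themselves lay 0.40, 0.27 and 0.25 from that mean, so the mean described none of them well. To the mean profile of KRT17, KRT16, KRT6A and KRT6C the nearest were AREG, which encodes the growth factor amphiregulin, AKAP1 and PRR5, each at 0.23, while the members lay 0.31 to 0.50 from it. AREG was at 17.7, 17.6 and 25.2 TPM in CES2 cells, against 22.5, 30.8 and 12.9 TPM in Vector cells, highest in Vector 2 and CES2 3 and lowest in Vector 3.

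Other keratins, from a list of 21 epithelial keratins, could be analysed for 10 genes, of which 9 were tested and 0 passed, with 1 at an unadjusted p under 0.05 and a median log2 fold change of -0.04. That gene was KRT13, the type I keratin of the upper layers of oral mucosa, at 448, 959 and 1246 TPM in CES2 cells, against 1795, 1261 and 1732 TPM in Vector cells. Its groups did not overlap, with CES2 the lower, as in 2.63% of all 12210 tested genes, with a log2 fold change of -0.96 ± 0.36 (SE; limma, adjusted p = 0.9998). KRT4, its type II partner, was at 10.6, 14.4 and 192 TPM in CES2 cells, against 41.6, 44.9 and 231 TPM in Vector cells, high in library 3 of each group (log2 fold change -1.24 ± 1.07 SE). KRT8 and KRT18, the simple epithelial pair that carcinoma cells often express, averaged 1295 and 886 TPM in CES2 cells and 1321 and 1036 TPM in Vector cells, with log2 fold changes of -0.03 and -0.21. Log2 fold changes of the other keratins with a mean of at least 10 TPM were 0.28 for KRT7, 0.10 for KRT10 and -0.27 for KRT80. The epidermal differentiation keratins KRT1 and KRT2 were not analysed here. With KRT13 and the other keratins in the sum, the 8 genes made up 65.4%, 60.8% and 56.7% of all keratin TPM in CES2 cells, against 57.1%, 61.5% and 48.9% in Vector cells.

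**Figure D5:**
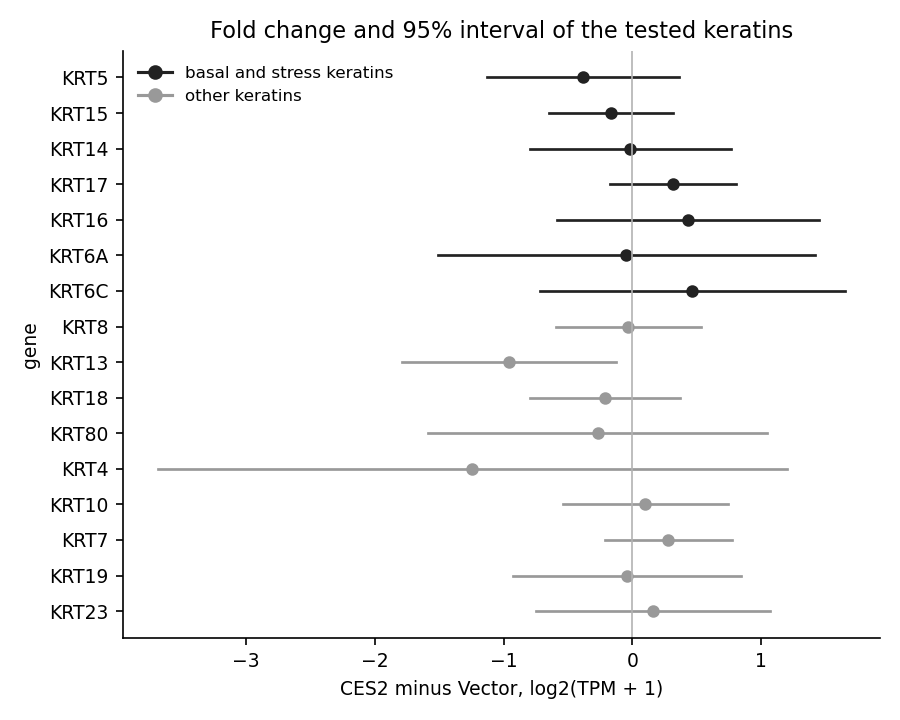
Difference between CES2 and Vector cells on the log2(TPM + 1) scale (points) with 95% intervals from limma (lines) for the 7 tested basal and stress keratins (black) and the 9 other tested keratins (grey). All 7 black intervals include 0, from the narrow one of KRT15 to the wide ones of KRT6A and KRT6C.

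Genes that anchor or modify keratin filaments did not pass either. All 18 anchorage genes of desmosomes and hemidesmosomes were tested, with 0 passing, 0 at an unadjusted p under 0.05, 5 log2 fold changes above 0, 13 below and a median of -0.15, beside 7780 of 12210 below 0 and a median of -0.06 over all tested genes. The lowest p was that of PKP2, the desmosomal plaque protein plakophilin 2, at 64.8, 55.2 and 75.5 TPM in CES2 cells, against 76.5, 79.1 and 90.3 TPM in Vector cells. Its groups did not overlap, with CES2 the lower, which held for 1 of the 18 genes and for 2.63% of all tested genes, with a log2 fold change of -0.33 ± 0.19 (SE; limma, adjusted p = 0.9998). Log2 fold changes were -0.22 for PPL, which encodes periplakin, and -0.19 and -0.18 for the desmosomal cadherins DSC3 and DSG2. Of 15 modifiers of keratin filaments 0 passed and 0 were at an unadjusted p under 0.05, with a median of -0.06. Log2 fold changes were -0.26 for the kinase PRKCA, 0.13 for the small heat shock protein HSPB1, -0.50 for the transglutaminase TGM2 and -0.12 for PNN, which encodes pinin.

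Transcription factors that act on keratin genes were tested for 28 of 31 listed members, with 0 passing, 0 at an unadjusted p under 0.05, 12 above 0, 16 below and a median of -0.02. CEBPB, a factor of keratinocyte differentiation and inflammation, was at 344, 417 and 212 TPM in CES2 cells, against 298, 157 and 159 TPM in Vector cells. The log2 fold change was 0.67 ± 0.33 (SE; limma, adjusted p = 0.9998), and CES2 3 lay within the Vector range. MYC, a growth factor-induced regulator, was at 8.37, 10.9 and 16.9 TPM in CES2 cells, against 12.3, 18.0 and 54.3 TPM in Vector cells, a log2 fold change of -0.94 ± 0.50. (SE) Log2 fold changes were -0.32 for ZNF750 and -0.23 for KLF4, both factors of late epidermal differentiation. TP63, the master regulator of basal epithelial identity and an activator of KRT5 and KRT14, was at 97.6, 117 and 54.3 TPM in CES2 cells, against 103, 81.1 and 86.2 TPM in Vector cells (log2 fold change -0.07 ± 0.29 SE). Its 2 lowest libraries were CES2 3 and Vector 2, as in 25.2% of all tested genes, and a relation to KRT5 was not tested.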

How the data were processed

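RNA-seq of 6 Cal33 libraries was analysed from 1 deposited table of TPM values, a unit inferred from column sums of 999804 to 999893, since its header names none. Per the submitters' processing notes, HISAT2 2.1.0, StringTie 1.3.3 and edgeR 3.0.8 were used with builds hg38 and GRCh38; the role of each, the annotation and the filters are not stated in the sources at hand. Transcript length and exon number, other values in the table, are as the authors deposited them.

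Blanks were read as 0, 20 symbols that had become dates were restored from gene identifiers, and groups came from sample titles. The comparison of CES2 against Vector cells used limma 3.58.1 (R 4.3.3) on log2(TPM + 1), with trend and group as the only term, for the 12210 genes that reached 1 TPM in 3 or more libraries, and Benjamini-Hochberg adjustment over all of them (threshold 0.05). Fold changes are on that scale, which understates changes of low genes. The fit was tested on simulated data. Sequences came from GENCODE release 29 and were aligned with mafft 7.526. Summaries and figures used Python 3.11.15, pandas 2.3.3, scipy 1.17.1 and matplotlib 3.10.9.

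Named were the 8 members, CES2, up to 4 genes of smallest p per context list, other keratins with a mean of at least 10 TPM, and 3 nearest genes per profile; TP63, named as a marker, falls outside this rule and was described after its values were seen. Members and lists were chosen with earlier results of these data known. Alternatives were each library left out, median rescaling, the replicate number as a blocking term, quantile normalization, other filters, a pseudocount of 0.1, no trend and library weights. A set of sequence stretches is not reported here.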

Additional observations from a re-analysis of the deposited data

How the results depend on the processing

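In 16 alternatives, 2 of them added after seeing the data, 0 basal or stress keratins passed the threshold (lowest adjusted p = 0.945, limma with library weights), and in 14 alternatives each 0 other keratins, anchorage genes, filament modifiers or transcription factors passed. The unadjusted limma p of KRT5 was 0.0292 without CES2 3, where 256 of 12210 tested genes were under 0.05. For KRT6C it was 0.00898 without Vector 2, where 246 were, and 0.0251 without both CES2 3 and Vector 2, where 347 were. The remaining Vector fields of KRT6C were blank in these 2 fits. The log2 fold change stayed below 0 for KRT5 (-0.71 to -0.11) and KRT15 (-0.32 to -0.04) and above 0 for KRT17 (0.14 to 0.44) and KRT6C (0.15 to 2.02) in every alternative that gave a value. The replicate block, the other filters and the fit without trend change only the error of a log2 fold change. Their sign was therefore fixed in advance. With a library left out the log2 fold change ran from -0.24 to 0.20 for KRT14, -0.64 to 0.55 for KRT6A and -0.15 to 0.74 for KRT16. That of KRT14 turned to 0.20 without CES2 1, 0.15 without Vector 1, 0.02 without Vector 2, 0.046 after median rescaling, 0.049 after quantile normalization and 0.038 without both Vector 2 and CES2 3. That of KRT6A turned to 0.39 without CES2 1, 0.11 without CES2 2, 0.55 without Vector 2, 0.015 after median rescaling, 0.017 after quantile normalization and 0.021 without both Vector 1 and CES2 2. That of KRT16 turned to -0.15 without Vector 3. The cause was not tested. KRT14 and KRT6C gave no value with a filter of 5 TPM, and KRT6B gave one only without a filter (0.29). The summed TPM of the 8 genes differed by -273 between CES2 and Vector cells, by -615 to 19.7 with a library left out, and by -74.6 after median rescaling. Deviations of same-numbered libraries from their group means correlated at 0.145, -0.524 and 0.375. Those of differently numbered libraries ran from -0.678 (CES2 3 with Vector 1) to 0.682 (CES2 2 with Vector 1), with 0.426 for CES2 3 with Vector 2. Within each group the deviations sum to 0, so these values cannot decide whether the replicate numbers pair the samples. With the replicate block 0 members passed as well. The library weights were estimated without full convergence. CES2 1 had a weight of 6.86, against 0.513 to 1.12 for the other libraries, so that fit leaned mostly on CES2 1 within its group. The depth is unknown, and genes near 1 TPM are the least certain.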

Other observations

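Keratin entries outside the lists used here, most of them hair keratins, were named after their values were seen. KRT86, a hair keratin, was the only one of these 7 above 10 TPM in most libraries, at 12.2, 20.4 and 16.6 TPM in CES2 cells, against 30.1, 8.55 and 39.9 TPM in Vector cells (log2 fold change -0.43, standard error 0.50). Its listed transcript has 3 exons and 562 bases, and KRT86 and KRT81 are close copies, so their separate values are uncertain. KRT81, KRT40, KRT38, KRT32, KRT74 and KRT222 each had a mean of at most 2.29 TPM over the 6 libraries, close to the levels of KRT14 and the minor KRT6 copies.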
